A study of Homo sapiens with 9 samples.

Results

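The pericentromeric zinc finger cluster of chromosome 19, in band 19p12, was followed here through 36 protein-coding genes of 57820 genes counted. Their definition used name and place only, but it was made with earlier results of these data known. It takes each protein-coding gene, named ZNF and a number, that starts between 19.7 and 24.7 Mb on chromosome 19 of hg19. The first starts at 19779605 and the last ends at 24312654. They were measured by Chrom-seq in 9 libraries of HEK293T, an established line from human embryonic kidney, that fall into 3 groups of 3. In all 3 groups, the cells transiently co-expressed an array of SunTag (GCN4) epitopes and an antibody fragment that binds these epitopes and carries APEX2, a peroxidase that turns biotin-aniline into a short-lived radical that tags nearby RNA. In the CBX1 group the array was fused to the chromodomain of mouse CBX1, which binds trimethylated lysine 9 of histone H3 (H3K9me3). In the CBX1_W42A group this chromodomain carried the amino acid change W42A, and in the control group the array had no reader. The CBX1_W42A samples are numbered in a later block than the other groups. A batch that followed this split could not be told apart from the reader. All cells expressed the constructs for 48 h before labeling, in which biotin-aniline (500 µM) was given for 30 min and then hydrogen peroxide (1 mM) for 1 min. Tagged RNA was taken on streptavidin beads, selected for poly(A) tails and sequenced as read pairs. A CMV promoter drove the epitope array and a chicken β-actin promoter the APEX2 fusion, both on transfected plasmids, so their level is not that of an endogenous protein. The study calls its replicates independent, and neither it nor the labels say whether those of these groups were separate cultures, so the p-values measure the spread between these libraries.

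ZNF genes of this kind encode proteins with a KRAB domain and a row of C2H2 zinc fingers. The fingers bind DNA, often in transposable elements, and the KRAB domain recruits TRIM28, which brings SETDB1, the enzyme that trimethylates lysine 9 of histone H3, and HP1 proteins such as CBX1, CBX3 and CBX5. The genes arose by tandem duplication, and their own bodies on chromosome 19 are known to carry H3K9me3, most of all over the exon that encodes the fingers. The comparison asked how much RNA of these genes was tagged near a reader of this mark, near its W42A form, and without a reader.

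The members lie on both strands, 19 on plus and 17 on minus, and span 14.7 to 162 kb each, with a median of 35.3 kb. The counts cover exons and introns, since the length deposited with each gene is its span. Where genes of the same strand overlap, the shared reads went to neither. Of 8023 genes in the table with no base of their own on their strand, 29 had a count in any library. For ZNF506, ZNF93 and ZNF626, under 5% of the span is free of other genes on the strand, and their count of 0 in every library says nothing of their RNA. The total count per library was 8379542 to 11082852, of which the members took 0.0301 to 0.0348% in the control, 0.0332 to 0.0415% with CBX1_W42A and 0.0505 to 0.0532% with CBX1. Mitochondrial genes took 3.16 to 3.50%, 4.20 to 4.39% and 4.36 to 4.70% in the same groups, and noncoding genes 3.06 to 3.40%, 3.95 to 4.13% and 4.36 to 4.59%. Both shares were higher in the libraries of either reader than in the control, and their part in the results below was not tested. The 7 HEK293T markers examined (PAX2, LHX1, VIM, NES, LIN28B, CDH2, NEFM) were present in every library with at least 36 counts. Of the markers of other cell types, CD3E, INS and KRT5 had 0 counts, PTPRC at most 2, ALB 4 to 25 and COL1A1 199 to 376. The markers were used as a check of the label and enter no comparison.

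The promoters of the members hold a run of letters in common. RefSeq listed a promoter for 27 of the 36, and all 27 held the letters CCAATCAG on 1 strand or the other between 250 bases before and 50 bases after the start. The same letters stand in 14.1% of the promoters of 403 other ZNF genes and in 4.16% of those of 27305 genes. The shorter CCAAT, the letters of the CCAAT box and part of CCAATCAG, was present at least 2 times in 19 of the 27 (70.4%), against 14.6% and 11.3%. A match is a string of letters, not a site of binding. The 150 bases before the start are shown for the 3 members with the smallest p between CBX1 and the control and for 2 of those with the largest. They are RefSeq sequences on build GRCh38.p14, written 5′ to 3′ in the direction of the gene, with CCAAT on either strand in capitals. The promoter stretch of ZNF429 is chr19:21505452-21505601 (plus strand), that of ZNF682 chr19:20039506-20039655 (minus strand), that of ZNF91 chr19:23395472-23395621 (minus strand), that of ZNF254 chr19:24087037-24087186 (plus strand) and that of ZNF430 chr19:21020507-21020656 (plus strand).
ZNF429: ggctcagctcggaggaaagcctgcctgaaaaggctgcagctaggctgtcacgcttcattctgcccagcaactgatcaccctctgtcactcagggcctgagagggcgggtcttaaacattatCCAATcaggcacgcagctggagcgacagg
ZNF682: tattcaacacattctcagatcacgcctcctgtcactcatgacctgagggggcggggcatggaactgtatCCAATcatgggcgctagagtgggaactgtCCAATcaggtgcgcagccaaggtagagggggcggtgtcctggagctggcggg
ZNF91: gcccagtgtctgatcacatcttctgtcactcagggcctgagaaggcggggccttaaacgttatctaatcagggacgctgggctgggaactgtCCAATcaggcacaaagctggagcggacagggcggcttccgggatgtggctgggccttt
ZNF254: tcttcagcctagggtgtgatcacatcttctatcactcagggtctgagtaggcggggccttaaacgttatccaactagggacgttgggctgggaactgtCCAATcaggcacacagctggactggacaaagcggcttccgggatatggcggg
ZNF430: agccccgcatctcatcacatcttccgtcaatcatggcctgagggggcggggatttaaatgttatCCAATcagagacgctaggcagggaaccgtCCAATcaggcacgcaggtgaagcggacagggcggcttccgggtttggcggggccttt

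ZNF430 and ZNF682 hold the letters CCAAT at 2 places in this stretch and ZNF429, ZNF91 and ZNF254 at 1, so members with a large and a small fold change are found with either number.

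The finger exons hold another. In the C2H2 fingers of this family, a linker of fixed amino acids joins each finger to the next, and its commonest spelling in the members' coding exons, read from the GRCh37 genome, is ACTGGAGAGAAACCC, with 190 of 278 linkers (68.3%). These letters stand in the exons of 35 of the 36 members, all but ZNF101, with a median of 5 copies and up to 20 in ZNF208. They stand in the exons of 25.9% of 468 other ZNF genes and of 0.0523% of 19133 other protein-coding genes, a contrast that the choice of the members' own spelling favours. In any spelling, the linker was in the exons of 36 members, 73.7% of the other ZNF genes and 0.977% of the other protein-coding genes. A stretch of 1 finger between 2 linkers, in capitals, is shown from 4 members that differ in their response to the reader, read from GRCh37 in the direction of the gene. The stretch of ZNF91 is chr19:23544818-23544916 (minus strand), that of ZNF681 chr19:23926669-23926767 (minus strand), that of ZNF682 chr19:20117039-20117137 (minus strand) and that of ZNF430 chr19:21239880-21239978 (plus strand).
ZNF91: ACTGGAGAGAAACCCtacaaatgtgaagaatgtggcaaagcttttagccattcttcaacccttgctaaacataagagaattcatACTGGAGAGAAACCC
ZNF681: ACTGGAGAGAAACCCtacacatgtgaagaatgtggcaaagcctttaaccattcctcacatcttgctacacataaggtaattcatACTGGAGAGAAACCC
ZNF682: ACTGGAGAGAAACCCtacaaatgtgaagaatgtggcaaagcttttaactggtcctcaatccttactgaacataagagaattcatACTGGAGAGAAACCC
ZNF430: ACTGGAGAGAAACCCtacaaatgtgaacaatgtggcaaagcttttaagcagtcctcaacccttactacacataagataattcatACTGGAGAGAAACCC

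Such likeness bears on the counts, since a read that matches several members equally cannot be assigned. Of the windows of 100 bases in a member's exons, at least 95% occurred once in the genome for all but ZNF98 (69.0%), ZNF492 (77.6%) and ZNF66 (90.6%), so values of these 3 are less certain. Read pairs were longer than such windows. The members' exons had a median GC content of 38.5%, against 44.3% for other ZNF genes and 48.7% for other protein-coding genes.

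Summed over the 36 members, the normalized level was higher in every CBX1 library than in any other library. In CPM, the count relative to the library size scaled by TMM factors over the 9 libraries, the sum was 491.6, 487.5 and 513.0 in CBX1 replicates 1, 2 and 3. It was 341.0, 406.9 and 328.6 in the CBX1_W42A replicates and 316.6, 352.7 and 351.9 in the control replicates. The CBX1 libraries lay close together and apart from the rest, the CBX1_W42A and control libraries overlapped, and CBX1_W42A replicate 2 was the highest of those 6. The means were 497 ± 13.7 CPM with CBX1, 359 ± 42.05 CPM with CBX1_W42A and 340 ± 20.6 CPM in the control (SD, n = 3 each). The sum with CBX1 was thus 1.46 times that of the control and the sum with CBX1_W42A 1.05 times. ZNF91 held 64.9 CPM of the sum with CBX1 and 27.4 CPM in the control, and without this gene the ratios were 1.38 and 1.02.

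**Figure D1:**
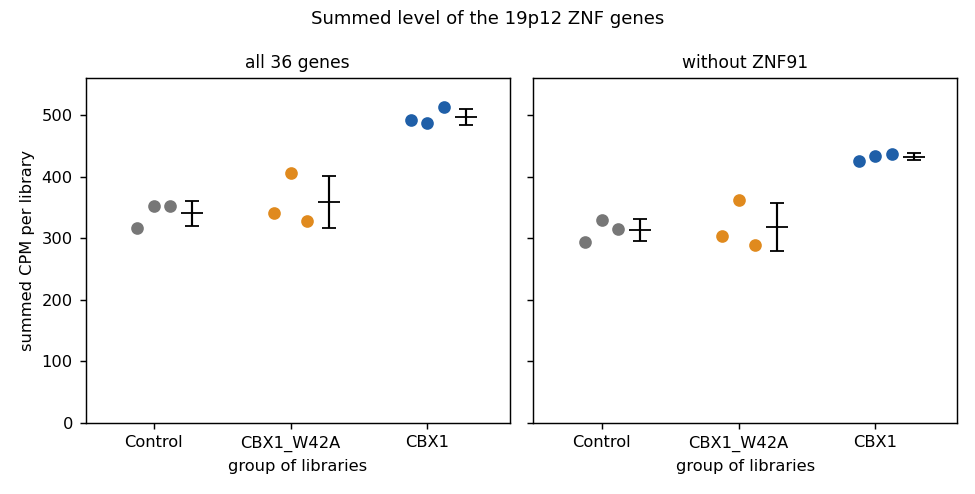
Each point is the summed CPM of the 19p12 ZNF genes in 1 library, on an axis from 0, for all 36 genes (left) and without ZNF91 (right), with the mean and SD of 3 libraries as a bar beside each group. The CBX1 libraries lie between 487.5 and 513.0 for all genes, above the 6 others, which lie between 316.6 and 406.9.

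Between CBX1 and the control, the tagged RNA of 11 members was higher and that of 0 was lower. ZNF682 rose 3.05-fold, ZNF91 2.42-fold, ZNF681 2.33-fold, ZNF66 2.21-fold, ZNF429 2.18-fold and ZNF738 1.93-fold, and ZNF253, ZNF737, ZNF492, ZNF730 and ZNF726 rose from lower levels. Of the 36 members, 25 had more than 18 counts over the 6 libraries and were tested with the quasi-likelihood test of edgeR, with p-values adjusted by Benjamini-Hochberg over all 18837 genes tested. The 11 passed an adjusted p of 0.05 and a log2 fold change of 0.75, a rule that called 7.06% of all genes tested higher and 0.34% lower. Without a minimum fold change, 18 members were higher at an adjusted p below 0.05 and 0 lower, against 10.6% and 9.46% of all genes. The fold change was above 0 for 25 of 25 (52.9% of all genes), and in 21 every CBX1 library exceeded every control library (17.9% of all genes). Over the 25, the median log2 fold change was 0.75, against 0.03 over all genes tested and -0.04 over protein-coding genes. 3 of the 25, ZNF253, ZNF486 and ZNF737, had at most 9 counts over the control libraries and passed the filter through their CBX1 counts. Among the other 22, 9 were called and the median was 0.57. With the trend of the fold change over all genes with exon GC content, gene span or abundance removed, 13, 12 and 9 members were called. Each removal also lowered the number of all genes called higher, that of the abundance trend by far the most.

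ZNF429 lies (ENSG00000197013.5) on the plus strand of chromosome 19 from 21679484 to 21739072 of hg19. It had 23.7, 23.5 and 23.1 CPM in CBX1 replicates 1, 2 and 3, 11.7, 12.2 and 8.15 CPM in the CBX1_W42A replicates and 9.22, 12.7 and 10.99 CPM in the control replicates. The CBX1 libraries were nearly equal and near 2.18 times the control, while the other groups overlapped. Its log2 fold change between CBX1 and the control was 1.12 (SE 0.14, adjusted p = 0.000109).

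ZNF682 lies on the minus strand from 20107867 to 20150315. It had 10.7, 10.8 and 10.4 CPM with CBX1, 5.86, 6.21 and 6.46 CPM with CBX1_W42A and 2.81, 4.19 and 3.62 CPM in the control. Here the 3 groups did not overlap, with CBX1_W42A between the others. The log2 fold change was 1.61 (SE 0.21, adjusted p = 0.00011).

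ZNF91 lies on the minus strand from 23487793 to 23578362 and encodes a repressor of SVA retrotransposons. It had 65.4, 54.0 and 75.3 CPM with CBX1, 37.6, 44.3 and 39.9 CPM with CBX1_W42A and 22.5, 22.9 and 36.8 CPM in the control. The groups again did not overlap, and control replicate 3 stood above its group and just under the lowest CBX1_W42A library. The log2 fold change was 1.27 (SE 0.17, adjusted p = 0.00012). Going from 27.4 ± 8.17 to 64.9 ± 10.7 CPM (SD, n = 3 each), this gene gained more CPM than any other member.

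ZNF738 lies on the plus strand from 21541732 to 21562104. It had 23.6, 20.6 and 23.4 CPM with CBX1, 13.8, 14.0 and 13.02 CPM with CBX1_W42A and 10.5, 12.9 and 12.2 CPM in the control. Each CBX1 library was above all the others, and the CBX1_W42A libraries lay just above the control. The log2 fold change was 0.95 (SE 0.14, adjusted p = 0.000327), and ZNF738 was the called member nearest to the threshold of 0.75.

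ZNF66 lies on the plus strand from 20959110 to 20991922. It had 9.25, 9.75 and 9.58 CPM with CBX1, 7.33, 7.37 and 5.19 CPM with CBX1_W42A and 3.49, 4.53 and 5.19 CPM in the control. CBX1 was highest in all 3 libraries, and the lowest CBX1_W42A library met the highest control library. The log2 fold change was 1.14 (SE 0.21, adjusted p = 0.00137).

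ZNF681 lies on the minus strand from 23921997 to 23941693. It had 8.69, 6.87 and 9.0 CPM with CBX1, 2.56, 2.74 and 1.59 CPM with CBX1_W42A and 3.88, 3.85 and 2.90 CPM in the control. The CBX1_W42A libraries were the lowest of the 9, so that the order of these groups was the opposite of that in ZNF91 and ZNF682. The log2 fold change between CBX1 and the control was 1.22 (SE 0.22, adjusted p = 0.0015).

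ZNF253, ZNF737 and ZNF486, with at most 9 control counts each, could be tested only because their CBX1 counts were high, so the size of their fold changes is a description. ZNF253 had 3.45, 4.10 and 1.16 CPM with CBX1, 0.73, 0.95 and 0.21 CPM with CBX1_W42A and 0.10, 0.57 and 0.12 CPM in the control. All CBX1 libraries were above all others, with replicate 3 well under the other two. Its log2 fold change was 3.44 (SE 0.65, adjusted p = 0.00179), resting on 80 counts with CBX1 and 7 in the control. ZNF737, which shares part of its span with another gene and keeps 59.9% of it to itself, had 1.45, 2.33 and 2.42 CPM with CBX1, 0.18, 0.32 and 1.06 CPM with CBX1_W42A and 0.19, 0.23 and 0.48 CPM in the control. The CBX1 libraries were again the highest, over a single raised CBX1_W42A library. The log2 fold change was 2.79 (SE 0.55, adjusted p = 0.0024), from 59 counts against 8. ZNF486, the least abundant member tested, had 8, 9 and 4 counts in the CBX1 libraries and 3, 0 and 0 in the control libraries. The ratio of its summed counts per total count was 7.31, with a 95% counting interval of 2.18 to 38.3 (exact binomial), and its adjusted p was 0.0512.

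**Figure D2:**
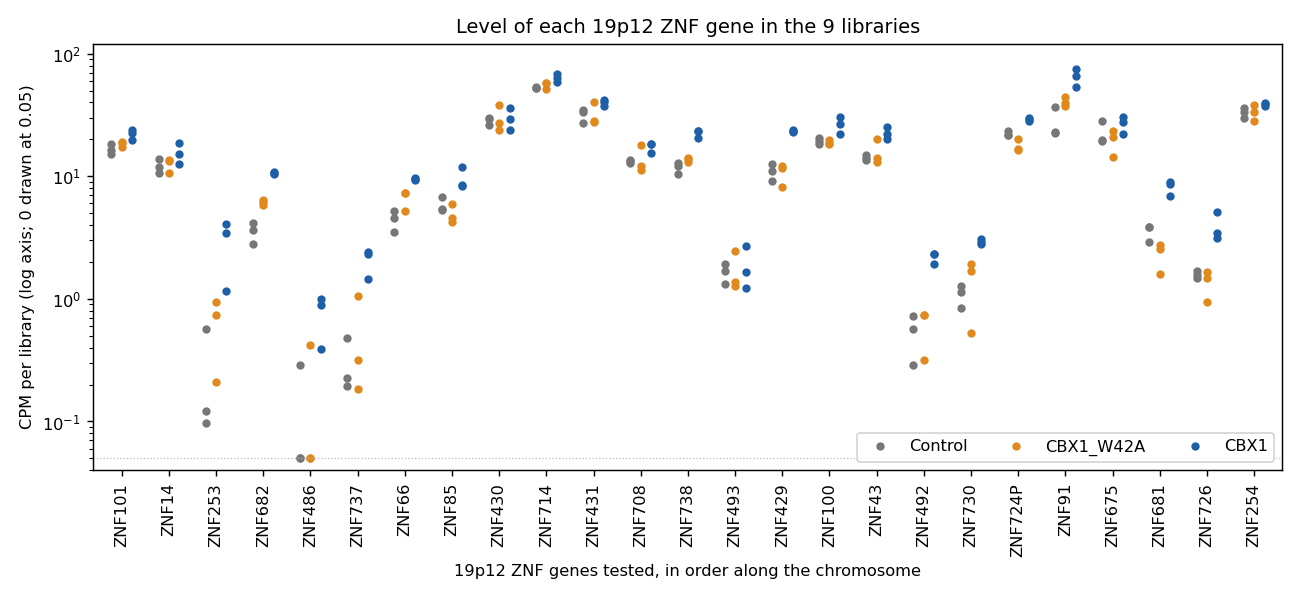
CPM in each library (log axis) of the 25 members tested, in order along the chromosome, with 3 points per group in grey (control), orange (CBX1_W42A) and blue (CBX1). Blue points lie above all grey points for 21 members, and for most of these the orange points lie near the grey ones.

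The other 14 members tested were not called. ZNF85 lay just under the fold threshold, at 0.747 (SE 0.21, adjusted p = 0.019), with 8.47, 8.31 and 12 CPM with CBX1 and 5.44, 5.32 and 6.77 CPM in the control. ZNF43, at 0.68 (SE 0.14, adjusted p = 0.00288), was next. In both, the CBX1 libraries were all above the control libraries. 5 more, ZNF100, ZNF101, ZNF431, ZNF708 and ZNF724P, had an adjusted p below 0.05 with log2 fold changes of 0.35 to 0.46. The abundant ZNF714, with the highest control level of the members per kb of span (1.23 CPM per kb), had 68.1, 63.1 and 59.1 CPM with CBX1 and 52.6, 52.8 and 53.8 CPM in the control. These groups did not overlap, but the log2 fold change was 0.28 (SE 0.10, adjusted p = 0.0513). ZNF101, second by that level (1.13 CPM per kb), had 23.7, 22.7 and 19.6 CPM with CBX1 and 15.2, 16.3 and 18.2 CPM in the control. Its log2 fold change was 0.43 (SE 0.14, adjusted p = 0.0333).

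Among members with a mean of at least 20 counts per library, those with the largest p were ZNF430, ZNF675, ZNF14 and ZNF254. ZNF430 had 24.1, 35.8 and 29.1 CPM with CBX1, 24.0, 37.8 and 27.0 CPM with CBX1_W42A and 26.1, 29.5 and 29.7 CPM in the control, and the 3 groups overlapped. Its log2 fold change between CBX1 and the control was 0.08 with a 95% interval of -0.21 to 0.37 (adjusted p = 0.705). ZNF675, a protein known to bind the signaling adaptor TRAF6, had 27.6, 21.95 and 30.5 CPM with CBX1, 20.8, 23.6 and 14.3 CPM with CBX1_W42A and 19.9, 28.1 and 19.6 CPM in the control. These overlapped too, with a log2 fold change of 0.27 (SE 0.15, adjusted p = 0.23). ZNF14 had 12.5, 18.5 and 15.3 CPM with CBX1, 13.6, 13.4 and 10.6 CPM with CBX1_W42A and 13.9, 10.6 and 11.96 CPM in the control. Its log2 fold change was 0.36 (SE 0.17, adjusted p = 0.143). ZNF254 had 38.7, 39.2 and 37.3 CPM with CBX1, 33.2, 38.1 and 28.4 CPM with CBX1_W42A and 30.1, 36.1 and 33.2 CPM in the control. The CBX1 libraries of ZNF254 were above all control libraries by a small margin, at a log2 fold change of 0.23 (SE 0.11, adjusted p = 0.137). The intervals of ZNF430, ZNF675, ZNF14 and ZNF254 end at 0.37, 0.60, 0.72 and 0.46, under the threshold of 0.75.

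With CBX1_W42A against the same control libraries, the quasi-likelihood test of edgeR called 0 of 24 members tested higher and 0 lower, where it called 0.974% of the 18680 genes tested higher and 0.0214% lower. Without a minimum fold change 0 members passed an adjusted p of 0.05 in either direction, against 1.37% of all genes higher and 1.25% lower. At an unadjusted p below 0.05 in the same test there were 4 members, 3 of them higher. Of the 18680 genes, 3599 had such a p, 1804 of them higher. By DESeq2 there were 3 members, and the number over all genes was not counted. The median log2 fold change of the 24 was 0.04, against 0.01 over all genes, and 16 were above 0 (51.7% of all genes). ZNF91 and ZNF682 had the smallest p, with log2 fold changes of 0.56 (SE 0.16, adjusted p = 0.0683) and 0.80 (SE 0.25, adjusted p = 0.0855). ZNF66 followed at 0.59 (SE 0.25, adjusted p = 0.194). ZNF91 fell on either side of the threshold with the processing. Its adjusted p was 0.0485 with DESeq2, 0.0059 with no filter on low counts, 0.0460 in a fit of all 9 libraries, 0.0396 with the replicate number as a block and 0.0487 with the GC trend removed. Without control replicate 3 its log2 fold change was 0.84 and its adjusted p 0.0145, and without control replicate 1 they were 0.45 and 0.221. ZNF682 passed in the fit of all 9 libraries, at 0.0379, and its adjusted p was 0.0663 to 0.286 under the other alternatives. ZNF724P, at -0.33 (SE 0.14, adjusted p = 0.217), was the member with an unadjusted p below 0.05 on the lower side. ZNF681 was at -0.63 (SE 0.32, adjusted p = 0.282) and ZNF429 at -0.04 (SE 0.20, adjusted p = 0.944). ZNF253, ZNF737 and ZNF492 had few counts in both groups, and their standard errors of 0.81, 0.81 and 0.66 on the log2 scale leave a change of either sign within the interval. For the 11 members called with CBX1, the median log2 fold change was 1.33 with CBX1 and 0.35 with CBX1_W42A. Both values rest on the same 3 control libraries, and the 11 were selected on the first.

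Between CBX1 and CBX1_W42A, which share no library, 7 of 25 members were higher with CBX1 and 0 were lower, in a fit where the rule called 0.795% of 19360 genes higher and 0.201% lower. They were ZNF681, ZNF429, ZNF85, ZNF726, ZNF253, ZNF682 and ZNF492. Without a minimum fold change, 10 members were higher at an adjusted p below 0.05 and 0 lower (1.32% and 0.925% of all genes), the other three being ZNF91, ZNF738 and ZNF724P. The fold change was above 0 for 25 of 25 (49.4% of all genes), and in 16 every CBX1 library exceeded every CBX1_W42A library (10.1% of all genes). The median of the 25 was 0.68, against -0.0038 over all genes. These 25 include ZNF253, ZNF486 and ZNF737, which were rare in the control. They held 80, 21 and 59 counts with CBX1 against 19, 4 and 15 with CBX1_W42A, and ZNF253 is among the 7 called. Among the other 22 members the median was 0.52. Of the 11 members called against the control, 6 were called here and 8 had an adjusted p below 0.05. Both comparisons use the same CBX1 libraries, and the 11 were selected on the one against the control. These counts are therefore a description and not an independent test.

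ZNF681 had 8.19 ± 1.15 CPM with CBX1 against 2.30 ± 0.62 CPM with CBX1_W42A (SD, n = 3), a log2 fold change of 1.83 (SE 0.26, adjusted p = 0.000691). ZNF429 followed at 1.13 (SE 0.16, adjusted p = 0.000691), with 23.5 ± 0.304 CPM against 10.7 ± 2.22 CPM. In both genes every CBX1 library was above every CBX1_W42A library. ZNF85 had 8.47, 8.31 and 12 CPM with CBX1 against 4.58, 5.90 and 4.23 CPM with CBX1_W42A, a log2 fold change of 0.97 (SE 0.22, adjusted p = 0.0223). It was called here and not against the control, and the difference between these comparisons was not tested. ZNF726 had 3.12, 3.44 and 5.13 CPM with CBX1, 1.65, 0.95 and 1.48 CPM with CBX1_W42A and 1.55, 1.47 and 1.69 CPM in the control. The CBX1 libraries stood apart, and the other groups overlapped. Its log2 fold change was 1.51 (SE 0.35, adjusted p = 0.0228) between the readers and 1.33 (SE 0.32, adjusted p = 0.00876) between CBX1 and the control. ZNF682 and ZNF91, which lay between the other groups with CBX1_W42A, differed between the readers by 0.78 (SE 0.19, adjusted p = 0.0305) and 0.68 (SE 0.13, adjusted p = 0.00525). ZNF430 stood at 0.01 (SE 0.16, adjusted p = 0.99). The count of 7 moved when single libraries were left out, which also leaves the test fewer libraries. It was 4 without CBX1 replicate 1, 3 without CBX1 replicate 3, 3 without CBX1_W42A replicate 1 and 3 without CBX1_W42A replicate 3.

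**Figure D3:**
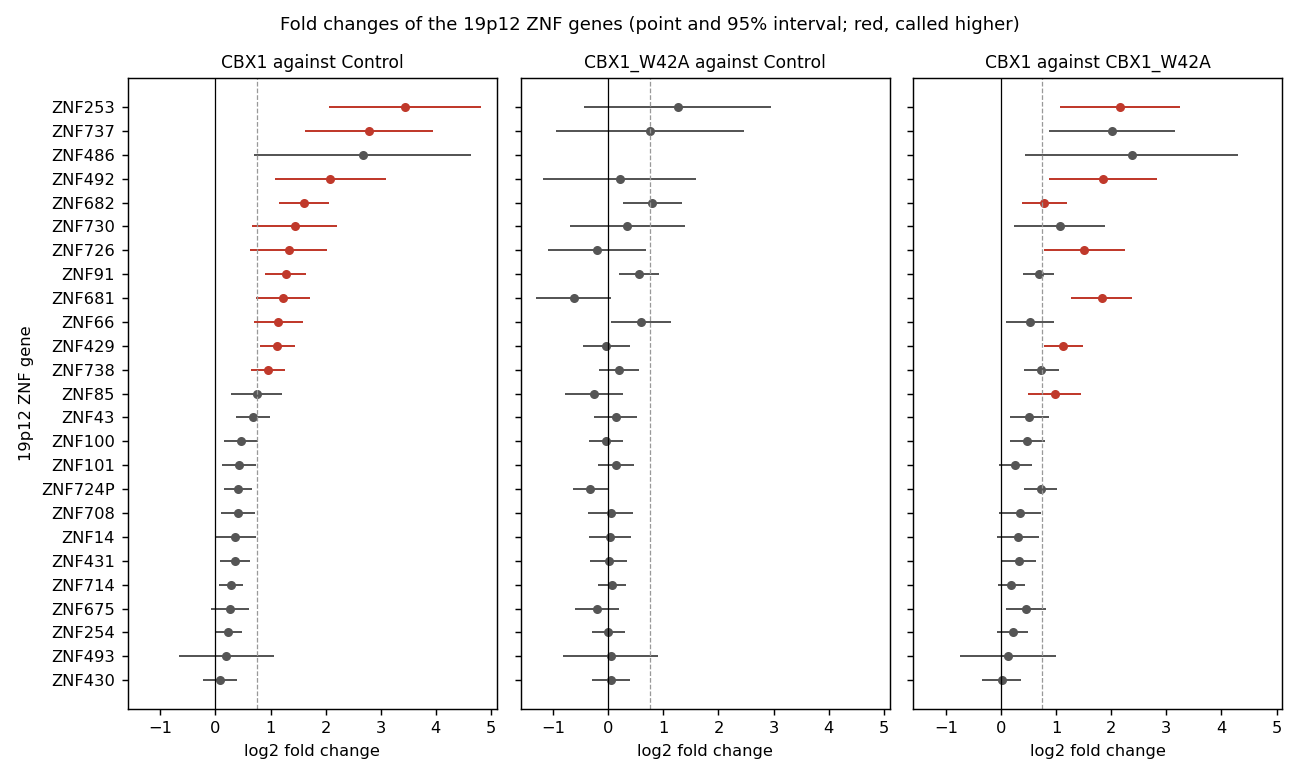
Log2 fold change of each member tested in the 3 comparisons, with 95% intervals, ordered by the change between CBX1 and the control, with called members in red and the threshold of 0.75 as a dashed line. The left and right panels lie above 0 for 25 of 25 members, and the middle panel is spread around 0 with 0 members called.

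The fold change between the readers was larger where the level in the control, which that fold change does not use, was lower. ZNF253, ZNF737 and ZNF486 are left out of the counts here, since members so rare in the control reached the tests through CBX1. Of the 9 remaining members with a control level of up to 0.184 CPM per kb of span, 5 were called higher with CBX1 than with CBX1_W42A, and their median log2 fold change was 1.06. Of the 13 others (0.213 to 1.23 CPM per kb), 1 was called and the median was 0.34. Across these 22 members Spearman's rho was -0.59, and it was -0.72 with the 3 rare ones. Members are not replicates, they share the libraries and the depth, and the rarest have the widest errors. Over the 25 it was -0.23 for span, -0.15 for exon GC content, 0.02 for the number of linkers and 0.02 for the place along the cluster. Among the members with low levels, ZNF493 and ZNF675 had the smallest fold changes, 0.13 (SE 0.41) and 0.45 (SE 0.17). For ZNF493, 26.4% of the span is free of other genes on the strand.

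**Figure D4:**
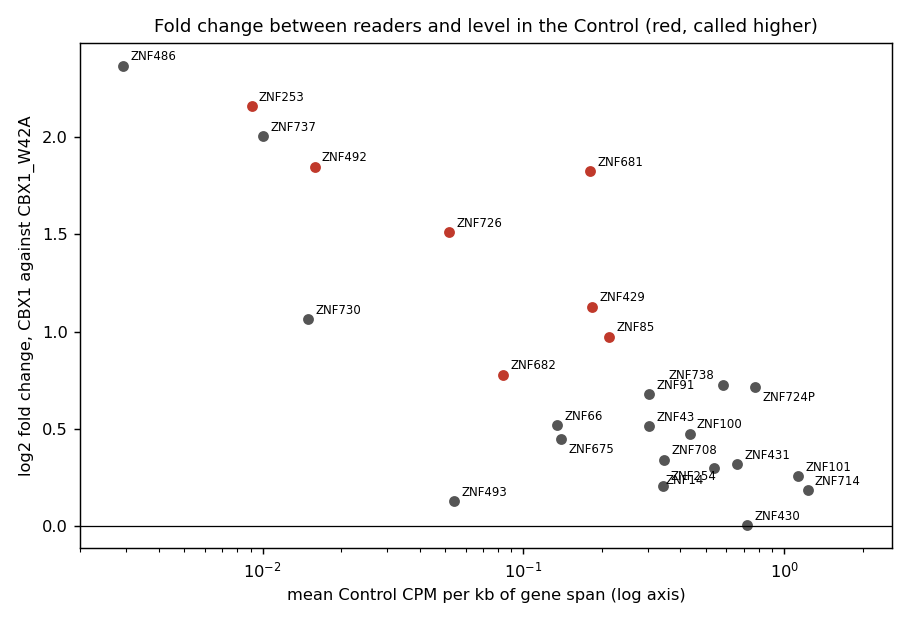
Mean control level of each of the 25 members per kb of gene span (log axis) against its log2 fold change between CBX1 and CBX1_W42A, with members called higher in red. Rarer members lie higher, from ZNF486 at 2.37 to ZNF430 at 0.01, with Spearman's rho of -0.72, or -0.59 without the 3 leftmost points.

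11 members were not tested between CBX1 and the control. Besides ZNF506, ZNF93 (a repressor of L1 elements) and ZNF626, whose spans are covered, ZNF729 had 0 counts in every library, which allows up to 0.271 to 0.358 CPM per library (3 counts, counting error only). The other seven, ZNF90, ZNF208, ZNF257, ZNF676, ZNF98, ZNF99 and ZNF728, held 28 counts over the 3 CBX1 libraries, 3 over the CBX1_W42A libraries and 8 over the control libraries. ZNF208, with 20 linkers the longest row of fingers by that count, held 11, 2 and 1 of these. The ratio of its counts per total count between CBX1 and CBX1_W42A was 5.97 (95% exact binomial interval 1.30 to 55.5). This interval pools the libraries of each group and covers counting error only. ZNF208 also had the most CBX1 counts of these 7 members, so the ratio is a description. The counts of these genes were too few for the test, and the reason for the low counts was not tested. No difference of any other one was looked for.

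Some ZNF genes elsewhere on chromosome 19 were called higher with CBX1. Against the control, where 7.06% of all genes tested were called, 7 of 33 were in distal 19p (21.2%), 9 of 57 in proximal 19q (15.8%) and 9 of 72 in distal 19q (12.5%). The median log2 fold changes of these lists were 0.39, 0.40 and 0.34. Of 226 ZNF genes on other chromosomes, 10 were called (4.42%) and the median was 0.05. Between the readers, where 0.795% of all genes were called, the calls were 1 of 33 (3.03%), 5 of 59 (8.47%), 9 of 72 (12.5%) and 6 of 228 (2.63%), with medians of 0.32, 0.41, 0.36 and 0.05. No test of the difference between lists was made. Within the 19p12 window, the 6 other protein-coding genes gave 4 tested and 0 called against the control, with a median of 0.43. The 166 noncoding genes gave 6 tested and 2 called (33.3%), with a median of 0.79. Between the readers, 0 of 4 and 1 of 6 (16.7%) were called, with medians of 0.52 and 0.63. With so few genes tested, these shares are a description.

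**Figure D5:**
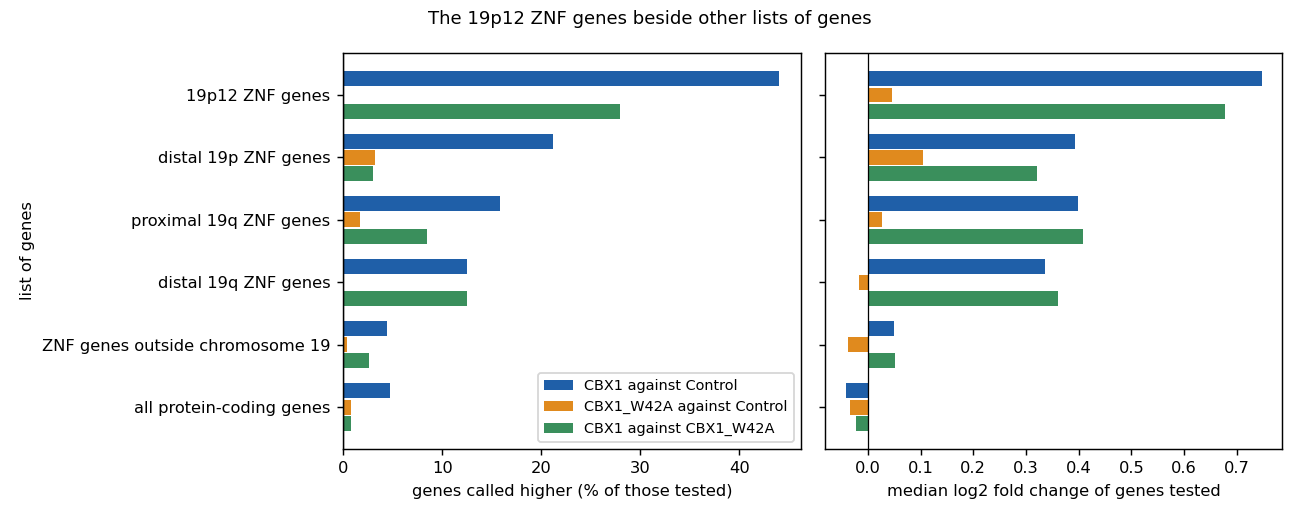
Share of tested genes called higher (left) and median log2 fold change (right) for the 19p12 ZNF genes, the other chromosome 19 ZNF lists, ZNF genes on other chromosomes and all protein-coding genes, with 1 bar per comparison. For the 19p12 genes the median is 0.75 between CBX1 and the control, 0.04 between CBX1_W42A and the control and 0.68 between the readers.

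The proteins of these genes act through TRIM28, its H3K9 methylation partners and HP1 proteins. Of 20 genes for this machinery, 20 were tested and 0 were called in either direction in any of the 3 comparisons. Between CBX1 and the control, 2 were higher and 5 lower at an adjusted p below 0.05, where 10.6% of all genes were higher and 9.46% lower. The share of higher ones was thus near that of all genes, and the share of lower ones was above it. The difference in shares was not tested. The higher ones were ATF7IP, a partner of SETDB1, at 0.52 (SE 0.09, adjusted p = 0.00125), and ZNF274, which recruits SETDB1 to the 3′ ends of ZNF genes, at 0.55 (SE 0.11, adjusted p = 0.00351). The lower ones, EHMT2, EHMT1, HDAC2, CHD4 and FAM208A, lay between -0.35 and -0.27. TRIM28 was at -0.12 (SE 0.09) and SETDB1 at 0.16 (SE 0.13). Between CBX1_W42A and the control, 0 passed in either direction at an adjusted p below 0.05 in edgeR's test. At an unadjusted p below 0.05 there were 6, 0 of them higher, against 3599 of 18680 genes, 1804 of them higher. Between the readers, 3 were higher (1.32% of all genes), ATF7IP at 0.73 (SE 0.11, adjusted p = 0.000733), ZNF274 at 0.54 (SE 0.11, adjusted p = 0.00894) and SETDB1 at 0.47 (SE 0.11, adjusted p = 0.0327).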

How the data were processed

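Per the paper's methods and the labels' processing notes, the authors used fastp (version 0.23.1) for trimming, HISAT2 (version 2.1.0) for alignment to hg19 and featureCounts (version 2.0.1) for counting on the GENCODE annotation of that build. They deposited whole-number counts per gene for 57820 genes, without normalization, and 0 entries name no gene. The methods do not state that molecular tags were used to collapse duplicates, so intervals cover counting error only. The strand and intron settings were read from the counts.

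Groups and replicate numbers came from the labels, and 0 columns of per-sample values were left out. The tests were run with edgeR (version 4.0.16) in R (version 4.3.3), with DESeq2 (version 1.42.0) as an alternative. Summaries and plots used scipy (version 1.17.1), numpy (version 2.4.6), pandas (version 2.3.3) and matplotlib (version 3.10.9) in Python (version 3.11.15). Following the study's methods, the groups were compared 2 at a time, on genes with more than 18 counts over the 6 libraries, and called at a log2 fold change of 0.75 or more and an adjusted p under 0.05. TMM factors, edgeR's quasi-likelihood test (in its older form) and Benjamini-Hochberg adjustment over all genes tested were used. The biological coefficient of variation was 10.5, 11.7 and 11.1% in the 3 comparisons, at totals of 8379542 to 11082852 counts per library. Replicate pairs differed by more than counting noise (chi-square per degree of freedom 4.95 to 12.4). In simulated counts for CBX1 against the control, the test called 164 of 200 genes changed by log2 1.5, and 2 unchanged ones, of 18539. Smaller changes, such as those of most members tested, were not simulated, so this share does not hold for them.

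The members, the lists and the rule for named members were chosen with earlier results of these data known. The rule took the 8 members with the smallest p between CBX1 and the control, the 4 with the largest among those with a mean of at least 20 counts, up to 4 of those called in each other comparison, and the 2 members highest and the 2 tested members lowest in control CPM per kb of span. Other members named in the text were chosen after their values were seen. Alternatives were DESeq2, RLE factors, library size alone, other filters and thresholds, all 9 libraries in one fit, a replicate block, removal of trends with exon GC content, span or abundance by lowess (span 0.3; exon GC known for 96.0% of genes), and leaving out each library. The newer form of edgeR's test was added after the data were seen. Exon sequence came from GRCh37 with a later annotation than the counts used. Of the markers of other cell types examined, 1 is not reported here.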

Additional observations from a re-analysis of the deposited data

How the results depend on the processing

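Between CBX1 and the control, the count of 11 members called higher became 3 when the test itself was made against log2 0.75 (glmTreat) and 18 without a minimum fold change, which is how each rule is built, and the count of members called lower was 0 in every alternative run. The median of 0.75 became 1.04 with no filter on low counts and 0.49 with at least 10 counts in every library, where 32 and 20 members were tested. Leaving out each library gave 10 to 13 calls and medians of 0.69 to 0.87, the highest without control replicate 3. Fewer of all genes were called higher each time than with every library kept. Between CBX1_W42A and the control, the count of 0 became 1 in the fit of all 9 libraries (ZNF682, log2 fold change 0.81, adjusted p = 0.0379) and ranged from 0 to 1 with a library left out, at 1 (ZNF91) without control replicate 3. Between the readers, the count of 7 became 4 with at least 10 counts in every library and 0 in the test against log2 0.75, in which 2 of all genes were called. With a library left out it ranged from 3 to 10, at 4 without CBX1 replicate 1 and 3 without CBX1 replicate 3, CBX1_W42A replicate 1 or CBX1_W42A replicate 3. The median of 0.68 became 0.87 with no filter on low counts and 0.50 with at least 10 counts, and ranged from 0.56 to 0.75 with a library left out. Apart from these, the cause of the moves was not tested.

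Of the 17 members named by rule, ZNF254, ZNF14, ZNF429 and ZNF430 changed sign under some alternatives, at fold changes near 0. ZNF254 between CBX1_W42A and the control went from just below 0 to 0.0010 with DESeq2, 0.0012 with RLE factors, 0.0732 with library size alone, 0.0175 with filterByExpr, 0.0354 with at least 10 counts, 0.0075 in the fit of 9 libraries, and 0.0502, 0.0214 and 0.0516 with the trend with abundance, span and GC content removed. With a library left out it ranged from -0.11 to 0.10. ZNF429 in the same comparison went to 0.0382 with library size alone and 0.0011 with at least 10 counts, and ranged from -0.14 to 0.13 with a library left out. ZNF14 there went to -0.0271 with the abundance trend removed and ranged from -0.0466 to 0.15. With a library left out, ZNF430 ranged from -0.17 to 0.19 there, from -0.0736 to 0.22 between CBX1 and the control and from -0.15 to 0.24 between the readers.

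With the replicate number as a block, 11, 0 and 8 members were called higher in the 3 comparisons, with medians of 0.73 and 0.67 for CBX1 against the control and against CBX1_W42A. Same-numbered libraries correlated in their deviations from the group means at -0.20, -0.23 and 0.05 for CBX1 and the control, -0.12, 0.14 and 0.14 for CBX1_W42A and the control, and 0.17, 0.08 and 0.12 for the readers, so that the numbers were not taken as pairs. Low counts limit the results for the rarer members and for those not tested, and the reason for the low counts was not tested. ZNF506, ZNF93 and ZNF626 are apart from these, since their spans are covered by other genes.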
